A study of Mus musculus with 9 samples.

Results

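The cyclin-dependent kinase (CDK) inhibitors are the 7 genes of the CIP/KIP family (Cdkn1a, Cdkn1b and Cdkn1c) and the INK4 family (Cdkn2a, Cdkn2b, Cdkn2c and Cdkn2d). They were chosen by family membership, with earlier results of these data known. Every probe whose RefSeq transcript belongs to 1 of these symbols was taken, which gave 10 of the 56605 distinct probes on the array. All 7 genes passed the filter on dim signal and stand among the 16843 genes tested, with 9 of their 10 probes. Gene expression was measured in whole mouse lungs on one-colour Agilent arrays, 1 lung per array. All 9 mice carried the TRF1flox/flox alleles, which allow removal of TRF1 (encoded by Terf1), a protein that binds and protects telomeres, and all were given tamoxifen (250 mg/kg each week), starting when they were 8 weeks old. The controls were TRF1flox/flox littermates without cre, treated for 9 months and 11 months old at collection (n = 3). SPC-cre TRF1flox/flox mice had been treated for 3 months and were 5 months old (3-month cre, n = 3), or treated for 9 months and 11 months old (9-month cre, n = 3). The SPC promoter, of the gene Sftpc, is active in alveolar type 2 cells, which make surfactant, so the deletion was directed at 1 cell type of the many in a whole lung. A control after 3 months of tamoxifen was not analysed here, so the step from control to 3-month cre lungs also spans a difference in age and in length of treatment.

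CDK inhibitors stop the cell cycle by binding the kinases that drive it. The CIP/KIP proteins p21, p27 and p57 (from Cdkn1a, Cdkn1b and Cdkn1c) act on several cyclin-CDK complexes, and the INK4 proteins p16, p15, p18 and p19 (from Cdkn2a, Cdkn2b, Cdkn2c and Cdkn2d) block CDK4 and CDK6, which keeps the retinoblastoma protein RB bound to E2F transcription factors. Cdkn2a also encodes Arf, which stabilises p53 by inhibiting Mdm2. Cdkn1a is a textbook target of p53, the transcription factor that DNA damage and uncapped telomeres activate, and Cdkn1a and Cdkn2a are widely used markers of cell senescence.

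Cdkn1a is shown here with its 2 annotated promoters because it is the member whose level changed. RefSeq (GRCm38.p6) gives 2 transcription starts for the gene, 2790 bases apart on the plus strand of chromosome 17. The 250 bases before each start follow, 5′ to 3′; capitals mark the paired core CATGNNNNNNCATG, the centre of the element that p53 binds, and the GC box GGGCGG, bound by Sp1. The first runs from chr17:29090729-29090978 and the second from chr17:29093519-29093768.
Cdkn1a, first start: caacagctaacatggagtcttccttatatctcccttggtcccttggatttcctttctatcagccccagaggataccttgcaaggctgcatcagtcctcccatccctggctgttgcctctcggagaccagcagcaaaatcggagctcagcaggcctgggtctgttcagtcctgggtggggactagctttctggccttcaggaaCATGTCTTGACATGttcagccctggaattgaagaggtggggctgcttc
Cdkn1a, second start: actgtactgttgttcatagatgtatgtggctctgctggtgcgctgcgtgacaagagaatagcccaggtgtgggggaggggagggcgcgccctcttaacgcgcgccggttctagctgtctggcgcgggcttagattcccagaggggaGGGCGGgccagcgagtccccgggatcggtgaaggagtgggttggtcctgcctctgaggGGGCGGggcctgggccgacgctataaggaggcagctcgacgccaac

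The paired core begins 48 bases before the first start and 2838 bases before the second. Searched on both strands in windows of 300 bases (the 250 before and 50 after a start), it was present in 0.712% of 32851 mouse windows and in 1 of the 9 windows found for the members. No window was found for Cdkn1c, so its promoter was not searched. The GC box, present in 35.7% of all windows, occurred in 2 places before the second Cdkn1a start and in at least 1 window of Cdkn1b, Cdkn2a, Cdkn2b, Cdkn2c and Cdkn2d. The letters TTTNNCGC, part of the site bound by E2F factors and present in 5.17% of windows, occurred once in each of the 2 Cdkn2a windows and in no other member window. A match is a description of the letters, and binding was not measured in these lungs.

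Levels are given as log2 processed signal relative to the 75th percentile of the same array, so that 0 is the 75th percentile and 1 unit is a 2-fold step. A gene is said to rise or fall at an adjusted p under 0.05 in limma, with Benjamini-Hochberg adjustment over all genes. The 75th percentile of processed signal was 958 to 1430 intensity units per array, over a local background of 28 to 35 units. Sftpc, the type 2 cell gene, was well above background on all 9 arrays. Terf1 itself was lower in cre lungs: its levels were -0.37, -0.05 and 0.20 in controls, -0.58, -0.68 and -0.62 in the 3-month group and -0.41, -0.97 and -0.39 in the 9-month group. The groups with cre did not overlap the controls, but the differences of -0.55 ± 0.193 (SE) and -0.52 ± 0.193 did not pass the adjusted threshold (adjusted p = 0.19 and 0.131), and the place of the probe relative to the deleted part is not given here. The array headers name 2 slides: slide 1 held 4 lungs (every control, and replicate 1 of the 3-month group), and slide 2 held the other 5. By Xist and Y-linked probes, the 3 controls, 3-month cre replicate 2 and 9-month cre replicate 1 were male and the other 4 lungs female. The labels call the replicates biological, and arrays of 3 lungs per group limit the precision throughout.

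Of the 7 CDK inhibitors, 1 rose and none fell in 9-month cre lungs against controls, where 6.45% of all genes were called (3.65% higher and 2.81% lower). None was called in 3-month cre lungs against controls, where 0.451% of genes were called (0.368% higher and 0.0831% lower). In 9-month against 3-month cre lungs 1 member rose and none fell, beside 4.99% of genes called (1.79% higher and 3.2% lower). At an unadjusted p under 0.05 the members counted were 3 of 7 at 9 months against controls, 0 at 3 months and 3 between the cre groups, beside 27.3%, 18.7% and 28.7% of all genes. The gene called in both comparisons was Cdkn1a. The median log2 difference over the 7 members was 0.21 at 9 months against controls, -0.02 at 3 months against controls and 0.26 between the cre groups, beside medians over all genes of 0.02, 0.05 and -0.03. The 9-month group takes part in both comparisons with a call, and the controls are shared by the other pair, so the comparisons are not independent of each other.

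**Figure D1:**
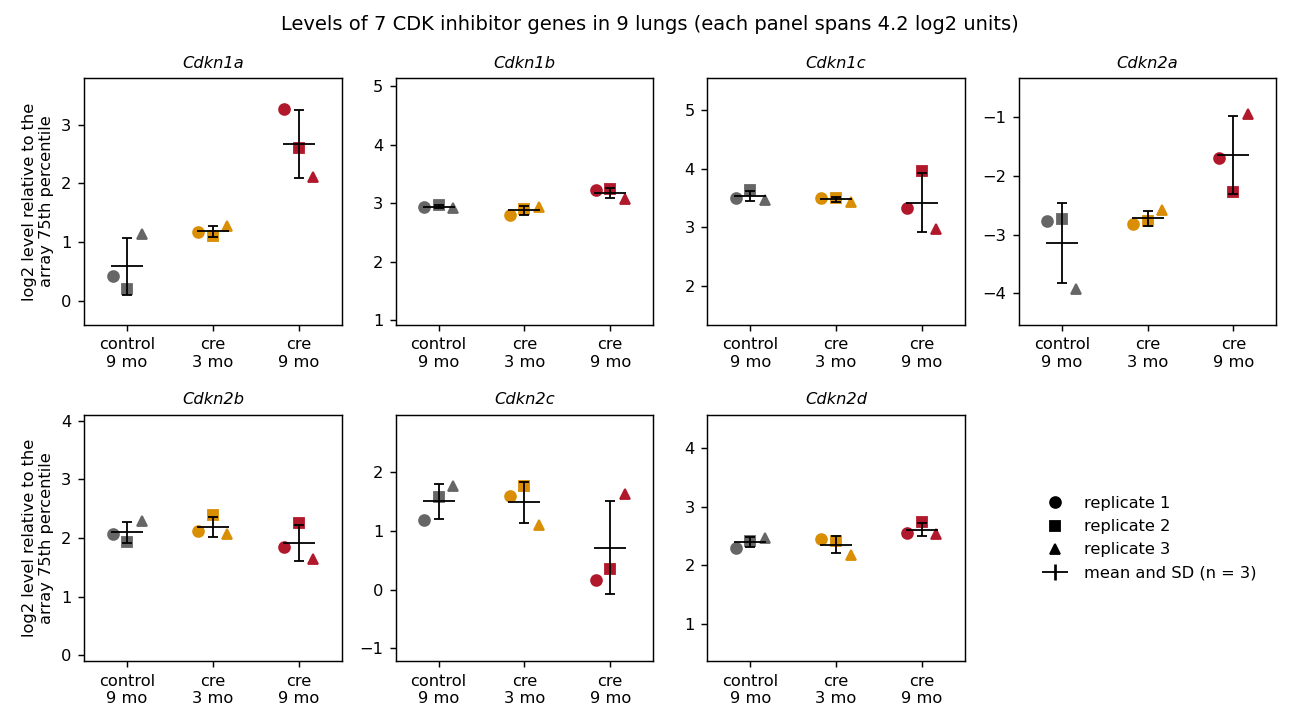
Level of each CDK inhibitor gene (log2 processed signal relative to the array's 75th percentile, vertical axis) in 3 control, 3 3-month cre and 3 9-month cre lungs; symbols are replicates, lines and bars the group mean and SD. Cdkn1a is higher in all 3 9-month cre lungs (2.12 to 3.27) than in any other lung (0.20 to 1.27), and Cdkn2c splits the 9-month cre lungs into 2 low values and 1 at the control level.

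In the CIP/KIP family, Cdkn1a stood out from Cdkn1b and Cdkn1c by the size of its difference. Its probe A_51_P363947 read 1424, 1269 and 2523 intensity units in controls, 2944, 3052 and 2748 units in the 3-month group, and 9279, 6900 and 4694 units in the 9-month group. On the relative log2 scale the control mean was 0.59 ± 0.48 (SD, n = 3), that of 3-month cre lungs 1.18 ± 0.09 and that of 9-month cre lungs 2.67 ± 0.58. The 9-month lungs lay above every other lung, and the lowest of them was 0.99 log2 units above the highest control and 0.85 above the highest 3-month lung. The 3-month lungs were the most alike, and control replicate 3, at 1.13, lay within their range.

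Cdkn1a, whose protein p21 arrests cells in G1, rose 4.23-fold in 9-month cre lungs against controls (log2 2.08 ± 0.315 SE, 95% interval 1.36 to 2.80, limma adjusted p = 0.0164). It ranked 132nd of 16843 genes by size of rise. Against 3-month cre lungs it rose 2.80-fold (1.49 ± 0.315, interval 0.77 to 2.21, adjusted p = 0.0417). Between 3-month cre lungs and controls the log2 difference was 0.59 ± 0.315, with an interval from -0.13 to 1.31 (adjusted p = 0.344). The difference between control and 3-month cre lungs was thus not called, while 9-month cre lungs were called against both. Under the 20 other settings the 3-month difference kept its sign in 20 and was called in 0, so a smaller rise at 3 months is neither shown nor excluded.

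Cdkn1a stayed higher in 9-month cre lungs under every setting run, males alone included, but its calls did not all hold. With the slide as a block, 9-month cre lungs were 2.07 ± 0.608 above controls and the adjusted p became 0.966; with animal sex as a covariate the values were 2.34 ± 0.377 and 0.0571. Both fits left 0 of all genes called by limma against controls (837 and 3710 genes had an unadjusted p under 0.05), and no slide held both control and 9-month cre lungs. Within slide 2, 9-month exceeded 3-month cre lungs by 1.48 ± 0.351 (adjusted p = 0.179). The 1 male 9-month cre lung, which has the highest Cdkn1a level of the 9, was 2.69 above the mean of the 3 controls; this comparison was added after the data were seen, and with 1 lung the value is a description without a test. The 9-month difference from controls lost its call without control replicate 2 (1.89, adjusted p = 0.0591) and kept it without any other lung of those groups. The call between the cre groups was lost without any 1 of 5 lungs (1.18 to 1.53, adjusted p = 0.055 to 0.141) and kept without 9-month cre replicate 3.

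**Figure D2:**
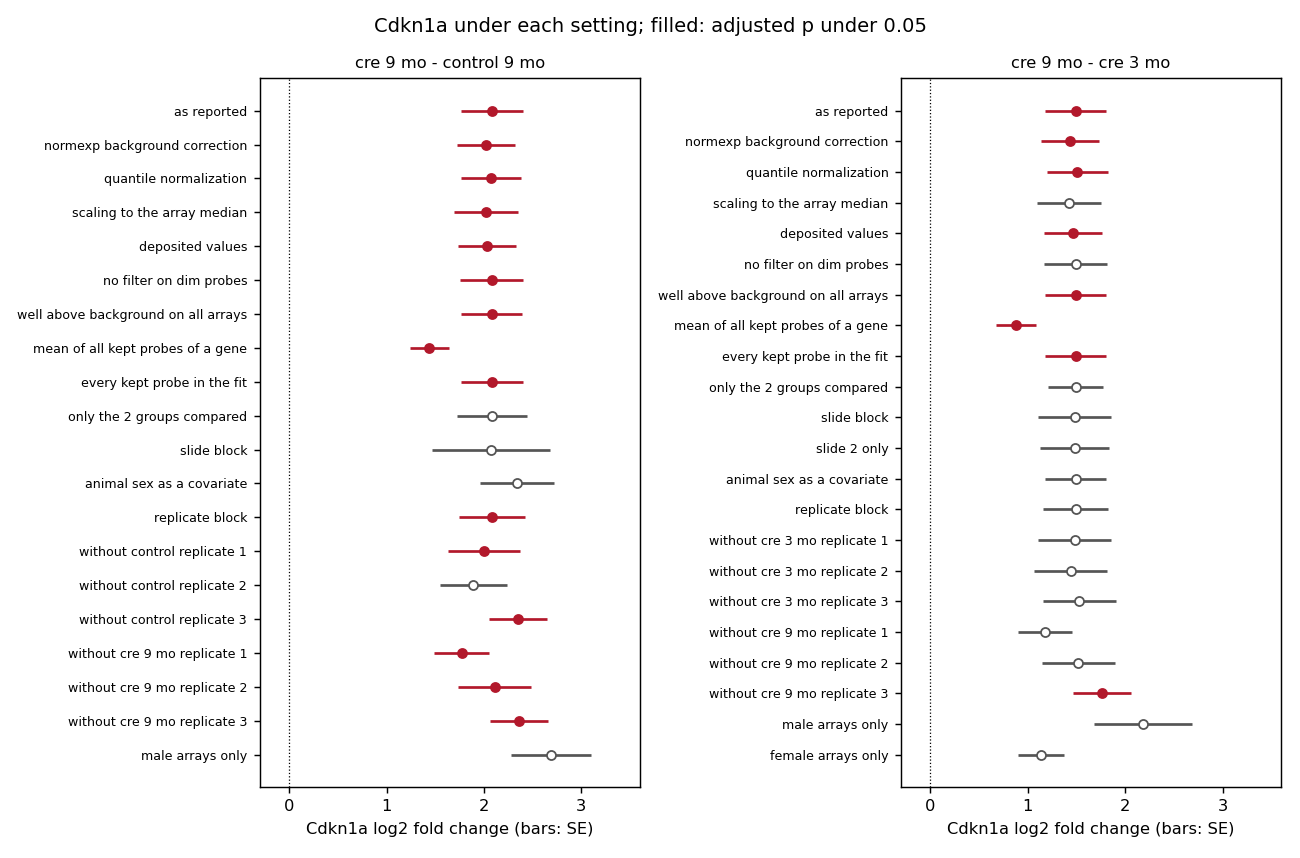
Log2 fold change of Cdkn1a (horizontal axis, bars are SE) under each processing setting, for 9-month cre against control lungs (left) and against 3-month cre lungs (right); filled points have an adjusted p under 0.05. All values lie above 0, between 1.44 and 2.69 on the left and between 0.88 and 2.18 on the right; both upper ends are the males-only setting, with 1 lung in each cre group, and without it the highest values are 2.36 and 1.76.

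A second Cdkn1a probe, A_55_P1986282, is annotated to the other transcript of the gene (NM_001111099, against NM_007669 for the first) and was close to background. It read 45.8, 27.3 and 43.9 units in controls, where the lowest was not well above background, 67.6, 78.1 and 48.7 units in the 3-month group, and 55.4, 58.5 and 77.2 units in the 9-month group. It was well above background on 2 of 3 control arrays and on all arrays with cre, so it passed the filter through the cre groups, and its difference of 0.80 from controls at 9 months is given as a description without a test. Between the cre groups, where it was measured on every array, it differed by 0.27 ± 0.226, with overlap (adjusted p = 0.451 in the fit over all 37647 kept probes, 6.35% called). The first probe differed there by 1.49 ± 0.315 in the same fit (adjusted p = 0.0398), and from controls by 2.08 ± 0.315 (adjusted p = 0.021, 3.49% of probes called). The difference between the probes was not tested. With both averaged, the dim probe included, the 9-month difference from controls was 1.44 and that between the cre groups 0.88. The sources used here do not give which start each transcript uses or where each probe lies.

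Cdkn1b, encoding p27, which holds resting cells out of the cycle, varied little. Its levels were 2.94, 2.98 and 2.92 in controls, 2.79, 2.90 and 2.94 in the 3-month group and 3.22, 3.23 and 3.08 in the 9-month group. The 9-month lungs lay above all others, by a margin of 0.10 over the highest control. The differences of 0.23 ± 0.0957 from controls (adjusted p = 0.159) and 0.30 ± 0.0957 from 3-month cre lungs (adjusted p = 0.0879) did not pass the threshold. Cdkn1b at 3 months differed from controls by -0.07 ± 0.0957 (interval -0.28 to 0.15).

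Cdkn1c, the imprinted gene of p57, was even across controls and 3-month cre lungs and uneven at 9 months. It stood at 3.50, 3.63 and 3.47 in controls, 3.50, 3.49 and 3.43 in the 3-month group, and 3.33, 3.96 and 2.97 in the 9-month group. The highest and the lowest of the 9 values were thus both 9-month cre lungs, with an SD of 0.50 against 0.08 and 0.04 in the other groups. Its mean differences were -0.11 ± 0.219 at 9 months against controls (interval -0.62 to 0.39, adjusted p = 0.76) and -0.06 ± 0.219 at 3 months (adjusted p = 0.909). Without 9-month cre replicate 3 the 9-month difference was 0.11.

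In the INK4 family no gene passed the threshold in any comparison. Cdkn2a, the shared gene of p16 and Arf, came nearest. Its brighter probe, A_55_P2008437, read 156, 167 and 76.1 units in controls, 185, 211 and 190 units in the 3-month group and 295, 236 and 562 units in the 9-month group. The relative levels were -3.14 ± 0.68 (SD), -2.72 ± 0.12 and -1.64 ± 0.66. The 9-month lungs lay above all others, and the control group was spread by its replicate 3, the lowest of the 9.

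The Cdkn2a difference between 9-month cre lungs and controls was 2.83-fold (1.50 ± 0.39, interval 0.61 to 2.39, adjusted p = 0.0577). It was 1.08 ± 0.39 against 3-month cre lungs (adjusted p = 0.116) and 0.42 ± 0.39 for 3-month cre lungs against controls (adjusted p = 0.592). That last value ranged from 0.0235 without control replicate 3 to 0.621 without control replicate 2 when 1 lung was left out. The first of these was called under 3 of 19 other settings: normexp background correction (1.14, adjusted p = 0.0495), the authors' deposited values (1.20, adjusted p = 0.0424) and without 9-month cre replicate 2 (1.81, adjusted p = 0.0327). The other Cdkn2a probe, A_51_P144813, annotated to the same transcript (NM_009877), was well above background on 1 of the 9 arrays, that of 9-month cre replicate 3, which also had the highest reading of the brighter probe. The sources used here do not place either probe in the part specific to p16 or to Arf, so the values are of the locus.

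**Figure D3:**
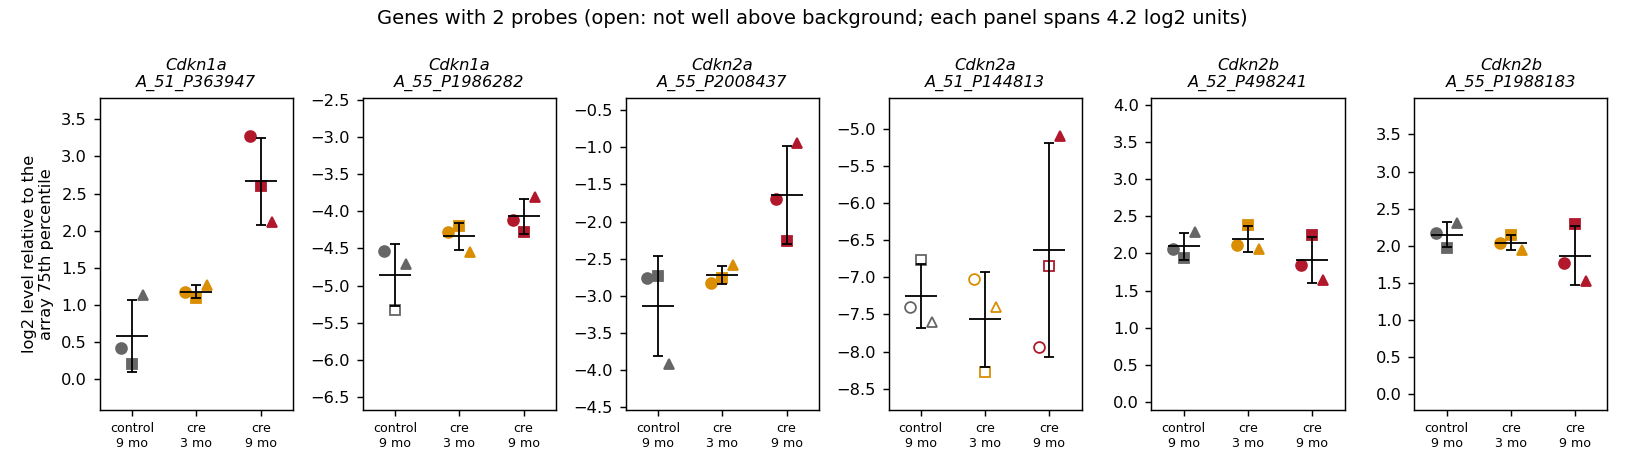
Level of each probe of the 3 genes with 2 probes (log2 relative to the array's 75th percentile, vertical axis) by group; circles, squares and triangles are replicates 1, 2 and 3, open symbols were not well above background, and lines and bars are the mean and SD. The 2 Cdkn2b probes follow each other closely, the dim Cdkn1a probe shows a smaller step than the bright one, and the dim Cdkn2a probe is filled in 1 lung.

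Cdkn2b, the neighbour of Cdkn2a on chromosome 4 that encodes p15, had overlapping groups in all 3 comparisons. The probe with its higher mean, A_52_P498241, stood at 2.06, 1.93 and 2.29 in controls, 2.11, 2.39 and 2.06 in the 3-month group and 1.84, 2.25 and 1.64 in the 9-month group. The highest lung was at 3 months and the lowest at 9 months. The 9-month difference from controls was -0.19 ± 0.18 (interval -0.60 to 0.23, adjusted p = 0.524) and the second probe, A_55_P1988183, gave -0.28 ± 0.2 (adjusted p = 0.413 over all probes). At 3 months the probes differed in sign, at 0.09 ± 0.186 and -0.10 ± 0.2 in the fit over probes, both with intervals that span 0. Mtap, the metabolic enzyme gene on the other side of Cdkn2a, differed by -0.26 ± 0.138 at 9 months (adjusted p = 0.256).

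Cdkn2c, encoding p18, was the member with the lowest mean difference at 9 months, and its 9-month lungs fell into unlike values. It read 2401, 3288 and 3903 units in controls, 3941, 4863 and 2445 units in the 3-month group and 1075, 1445 and 3341 units in the 9-month group. Replicates 1 and 2 at 9 months were lower than all other lungs, and replicate 3 lay among the controls. The mean log2 difference was -0.79 ± 0.374 (interval -1.65 to 0.07, adjusted p = 0.211) against controls and -0.77 ± 0.374 against 3-month cre lungs (adjusted p = 0.213). Without replicate 3 the differences were -1.25 against controls (adjusted p = 0.0322) and -1.23 against 3-month cre lungs (adjusted p = 0.0378). This was the 1 setting with a call, of 19 other settings against controls and 21 between the cre groups. Without 9-month replicate 1 or 2 the difference from controls was -0.517 or -0.609 (adjusted p = 0.451 and 0.371). At 3 months against controls the difference was -0.02 ± 0.374.

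The same 9-month replicate 3 had the highest Cdkn2a level and the lowest Cdkn1a, Cdkn1b, Cdkn1c, Cdkn2b and Cdkn2d levels of its group, taking the probe used for each gene; at the dim Cdkn1a probe it was instead the highest of its group (-3.81, against -4.11 and -4.28). Its neutrophil markers also stood apart: the summed level of 5 of these genes, in units of the array's 75th percentile, was 49.1 there and 281 and 284 in replicates 1 and 2, against 18.1 to 134 in controls and 80.1 to 148 in 3-month cre lungs. All 5 neutrophil markers measured had a positive difference at 9 months against controls, beside 52.8% of all genes, which is given without a test. Ngp, 1 of the 5, was well above background on 6 of 9 arrays, so it passed the filter without being measured on every array. The part of neutrophils in the member values was not tested.

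Cdkn2d, encoding p19, was steady. Its levels were 2.30, 2.42 and 2.47 in controls, 2.45, 2.41 and 2.18 in the 3-month group and 2.55, 2.74 and 2.53 in the 9-month group. The 9-month lungs lay above the rest by a margin of 0.06 over the highest control, and the differences of 0.21 ± 0.116 from controls (adjusted p = 0.272) and 0.26 ± 0.116 from 3-month cre lungs (adjusted p = 0.182) did not pass the threshold. In all, 4 of the 7 genes (Cdkn1a, Cdkn1b, Cdkn2a and Cdkn2d) had 9-month lungs that did not overlap the controls, where 32.5% of all genes did not overlap. The same 4 did not overlap the 3-month cre lungs, where the share over all genes was 33.6%. No member separated 3-month cre lungs from controls, beside 31% of genes.

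**Figure D4:**
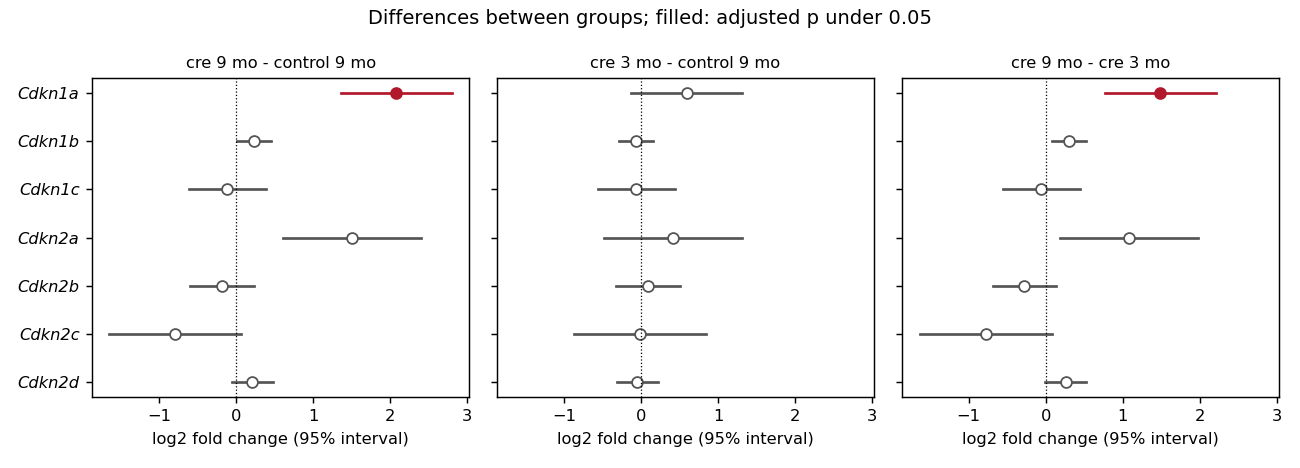
Log2 fold change of the 7 CDK inhibitors (horizontal axis, points with 95% intervals) in the 3 comparisons; filled points have an adjusted p under 0.05. Cdkn1a is filled at 9 months against controls (2.08) and against 3-month cre lungs (1.49), and all 7 intervals for 3-month cre lungs against controls span 0.

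The RNA came from whole lung, so that a change in the number of cells of a type and a change in RNA per cell cannot be told apart. The summed level of 5 monocyte and macrophage markers was 133 to 150 in controls and 132 to 151 in the 3-month group. In the 9-month group it was 197 to 207, above every other lung. Of all genes, 32.5% likewise did not overlap between 9-month cre lungs and controls. All 5 markers were higher at 9 months than in controls at an unadjusted p under 0.05 and 0 of 5 passed the adjusted threshold. Against 3-month cre lungs 4 of 5 were higher, 2 of them at an unadjusted p under 0.05, and the lowest differed by -0.34. The sum of 4 alveolar macrophage markers was 61.2 to 170 in controls, 199 to 254 at 3 months and 162 to 256 at 9 months. The sum of 6 type 2 cell markers, to which the brightest genes such as Sftpc add most, was 509 to 581, 536 to 744 and 585 to 759 in the same order. Gene by gene these markers did not move one way: 3 of 6 had a positive difference at 9 months against controls, with a median of -0.04. The highest was Sftpb at 0.79 (adjusted p = 0.101), and the lowest was Slc34a2, a phosphate transporter gene (adjusted p = 0.0532). Between the cre groups the median was -0.35 and Slc34a2 fell by 1.99 (adjusted p = 0.0201). Of 2 eosinophil markers Prg2 stood 4.37 higher at 9 months than in controls. It was well above background on 7 of 9 arrays, so this size rests partly on dim readings and is given without a test. Of 4 fibroblast markers Npnt fell by 1.23 (adjusted p = 0.0355). All 3 B cell markers were lower at an unadjusted p under 0.05, with a median of -0.76 and 0 calls after adjustment. The part of all these cell types in the Cdkn1a and Cdkn2a levels was not tested.

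Upstream of Cdkn1a, the gene of p53 itself, Trp53, differed by -0.27 ± 0.276 at 9 months against controls (adjusted p = 0.552) and by -0.31 ± 0.276 at 3 months; it was singled out here for its role. Of 15 p53 pathway regulators measured, 1 rose at 9 months and none fell, with a median of 0.11. The riser was Wrap53, which overlaps Trp53 in antisense and encodes a telomerase assembly factor, at 0.62 ± 0.133 (adjusted p = 0.0355). Among 24 other p53 target genes 4 rose at 9 months and none fell, beside 3.65% of all genes higher and 2.81% lower. This list, like the other lists, was chosen with earlier results of these data known. Of the 24, 18 had a positive difference, beside 52.8% of all genes, and the lowest was at -0.73. At an unadjusted p under 0.05 in limma, 11 were higher and 2 lower. The list's median was 0.42, beside 0.02 over all genes. Gdf15, a stress-induced cytokine, rose by 2.78 ± 0.287 (adjusted p = 0.00897), Pmaip1, the pro-apoptotic Noxa, by 0.95 ± 0.145 (adjusted p = 0.017), the death receptor gene Fas by 0.75 ± 0.177 (adjusted p = 0.0442) and Phlda3, an inhibitor of Akt, by 0.47 ± 0.107 (adjusted p = 0.0421).

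At 3 months Gdf15 was the 1 p53 target called, at 2.05 ± 0.287 (adjusted p = 0.0339), beside the Cdkn1a difference of 0.59 that was not called. Between the cre groups Pmaip1 was the 1 target called (0.93 ± 0.145, adjusted p = 0.0264). At an unadjusted p under 0.05 in limma, 7 of the 24 targets were higher between the cre groups and 4 lower. Gdf15 differed there by 0.73 ± 0.287 (adjusted p = 0.14).

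Other transcription factors that act on CIP/KIP genes moved in both directions. Of 21 measured, 2 rose and 1 fell at 9 months against controls, with a median of 0.04. Cebpb, an inflammatory and senescence-linked factor, rose by 0.84 ± 0.127 (adjusted p = 0.0163), and Myc, which represses Cdkn1a, rose by 0.82 ± 0.164 (adjusted p = 0.0294). Cebpa, a differentiation factor whose protein binds p21, was lower, at -0.80 ± 0.174 (adjusted p = 0.0361). Between the cre groups Cebpb (0.77 ± 0.127, adjusted p = 0.029) and Stat3 (0.53 ± 0.117, adjusted p = 0.0449) rose and Cebpa (-0.97 ± 0.174, adjusted p = 0.0309) and the glucocorticoid receptor gene Nr3c1 (-0.46 ± 0.0944, adjusted p = 0.0403) fell.

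For the Ink4-Arf locus, none of 24 regulators, which include the Polycomb proteins that silence it, was called in any comparison (limma; at 9 months 0 were higher and 3 lower at an unadjusted p under 0.05). The list's median at 9 months was -0.19. Dmtf1, an activator of Arf, was at -0.49 ± 0.138 at 9 months (adjusted p = 0.0706) and at -0.47 ± 0.138 at 3 months (adjusted p = 0.141). Ezh1, a Polycomb methyltransferase gene, was at -0.29 ± 0.109 at 9 months (adjusted p = 0.128).

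Of 17 genes for the turnover of inhibitor proteins, 1 was called at 9 months: Cul4a, the scaffold of a ubiquitin ligase that targets p21 and p27, at -0.69 ± 0.162 against controls (adjusted p = 0.0438) and -0.74 ± 0.162 against 3-month cre lungs (adjusted p = 0.0445).

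A list of cyclin and CDK genes showed no call against controls. Of 14 cyclin and CDK genes measured, 0 were called by limma at 9 months (2 at an unadjusted p under 0.05, both higher) and the median was 0.24. Ccne1, the cyclin E1 gene, was at 0.93 ± 0.33 (adjusted p = 0.117) and Ccnd3, the cyclin D3 gene, at 0.39 ± 0.163 (adjusted p = 0.169). At 3 months the median was 0.57, with 0 called and 4 higher at an unadjusted p under 0.05. Cdk7, which activates other CDKs, was the 1 gene called between the cre groups, at -1.25 ± 0.276 (adjusted p = 0.0449).

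RB and E2F proteins gave 0 calls of 20 at 9 months (2 at an unadjusted p under 0.05), with a median of 0.15. E2f8, a repressor of the family, was at 1.17 ± 0.456 (adjusted p = 0.144) and E2f4 at 0.28 ± 0.116 (adjusted p = 0.16). The 20 S-phase genes that E2F drives also gave 0 calls (2 at an unadjusted p under 0.05), yet 19 of 20 had a positive difference at 9 months, with a median of 0.45, and 20 of 20 at 3 months, with a median of 0.65. Over all genes the share with a positive difference was 52.8% at 9 months and 57.6% at 3 months. Gins1, a part of the replicative helicase, was at 0.91 ± 0.283 (adjusted p = 0.0875) and Cdc6, which licenses replication origins, at 0.73 ± 0.304 (adjusted p = 0.168) at 9 months. The rise in Cdkn1a was measured in lungs whose E2F target genes were not lower than in controls on the median. Between the cre groups, where Cdkn1a also rose, 8 of the 20 had a positive difference, beside 46.9% of all genes. Their median there was -0.05. Whether the same cells carry both was not tested. Cdkn3, a phosphatase gene that shares the name but not the family, was at 1.19 ± 0.48 (adjusted p = 0.156).

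Of 24 genes associated with senescence, 4 rose and none fell at 9 months, beside 3.65% of all genes higher and 2.81% lower. This list too was chosen with earlier results of these data known. At an unadjusted p under 0.05 in limma, 12 were higher and 1 lower. The list's median was 0.52, beside 0.02 over all genes. Among the 4 that rose were the neutrophil chemokine Cxcl1 (2.24 ± 0.54, adjusted p = 0.0479), the metalloproteinase inhibitor Timp1 (1.31 ± 0.293, adjusted p = 0.0394) and Plaur, the urokinase receptor (0.64 ± 0.137, adjusted p = 0.035). At 3 months none of the 24 was called by limma (6 higher and 2 lower at an unadjusted p under 0.05), and the median was 0.28. The part of inflammatory cells, whose markers are given above, in the levels of these genes was not tested.

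**Figure D5:**
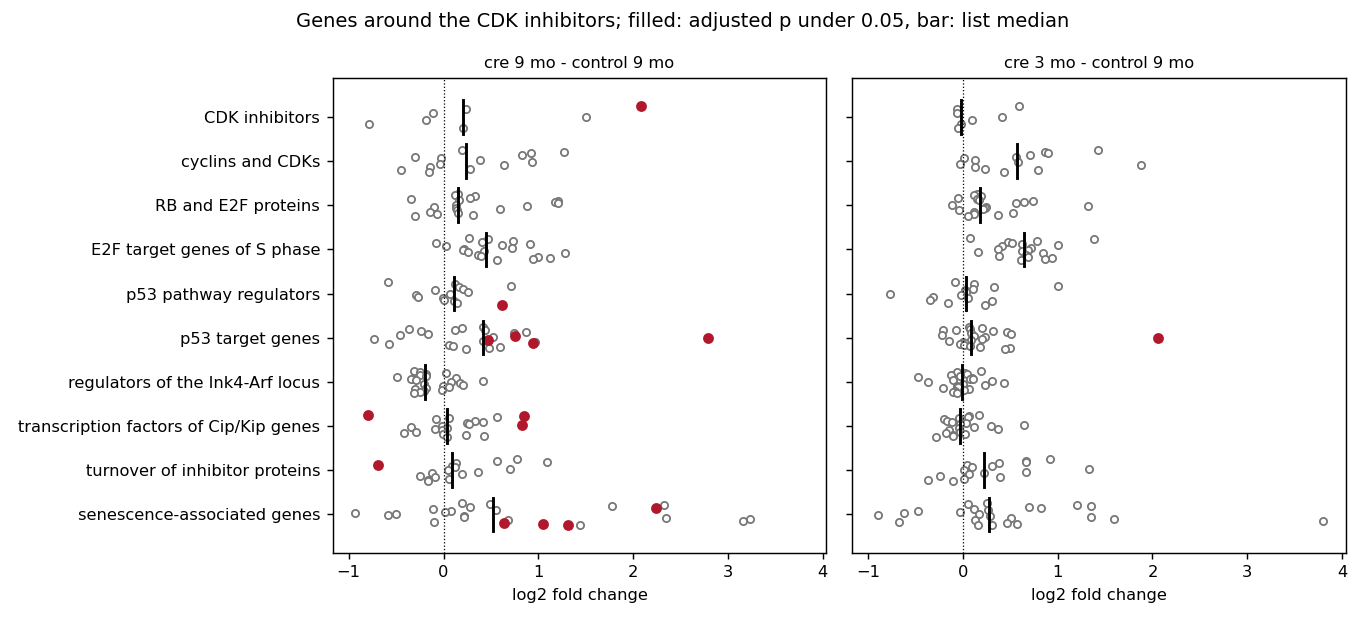
Log2 fold change (horizontal axis) of each measured gene in the CDK inhibitor families and in 9 lists of related genes, for 9-month cre (left) and 3-month cre (right) lungs against controls; filled points have an adjusted p under 0.05 and bars are list medians. p53 targets and senescence-associated genes each have 4 filled points on the left, all above 0, and Gdf15 is the 1 filled point on the right. The lists were chosen with earlier results of these data known.

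By correlation of log2 level over the 9 arrays, the genes most like Cdkn1a were Arhgap26, a GTPase-activating protein gene (r = 0.987), Speer4f1, of a family of close copies (r = 0.98), and Cnih4, an export receptor gene (r = 0.973). Speer4f1 was dim, with a mean level of -5.19. The dimmest signal called well above background was -6.38 to -5.09 by array. The genes most like Cdkn2a were Lmnb2, the lamin B2 gene (r = 0.991), Tnfrsf4, a TNF receptor gene of activated T cells (r = 0.977) and the ubiquitin-like Ubd (r = 0.973). Cdkn1c was most like Bnip3 (r = 0.982), a mitophagy gene induced by low oxygen, and Cdkn2c most like the interferon-induced Ifit2 (r = 0.971). Cdkn1b was nearest to Shisal2a (r = 0.973), Cdkn2b to Klc3 (r = 0.974) and Cdkn2d to Uqcr10 (r = 0.943), a respiratory chain gene. The points share arrays, scaling and group structure, and the genes named head a ranking of all genes tested, so these values are descriptions.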

How the data were processed

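Per the file headers, the scanner files came from Agilent Feature Extraction 10.7.3.1, and the deposited processed intensity was background-subtracted within an array but not scaled between arrays. A second deposited set holds an intensity per probe that the authors had brought to a common distribution, by a tool not named in the sources used here. Its median per array was 163 to 164, it followed the scanner's median signal (log2 r at least 0.9997), and it served as an alternative.

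Log2 processed signal was set relative to the array's 75th percentile over distinct non-control probes. Probes well above background on all arrays of any group were kept. Of 56605 probes, 32994 matched a gene symbol through RefSeq transcripts. The probe with the highest mean represented a gene. One limma 3.58.1 model held all 3 groups (R 4.3.3; files were read by the package data.table, release 1.17.8), with group means as terms and 6 residual degrees of freedom, and p-values were adjusted by Benjamini-Hochberg over 16843 genes. A second fit covered all 37647 kept probes. Tests were two-sided. On simulated data for 9-month cre against control lungs, over 16843 genes, 59% of changes of log2 size 1 and 90% of size 2 were recovered, with 5 false calls. The simulated noise was independent between genes and lungs and held no slide or sex difference. These figures thus do not give the error rate under the layout of slides and sexes here.

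The members and gene lists were chosen with earlier results of these data known. Named genes are all members, up to 4 called genes per list (or up to 2 with the smallest p), Terf1 and Sftpc, and for each member the genes most correlated with it. A gene taken in by this rule is not reported here. The settings tried are given at the end of the text. Promoters and motifs were read with Python 3.11.15 and plotted values drawn with matplotlib 3.10.9.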

Additional observations from a re-analysis of the deposited data

Results flagged for a closer look

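Cdkn1a differed between the 2 groups with cre: its level in 9-month cre lungs exceeded that in 3-month cre lungs by 1.49 on the log2 scale (adjusted p = 0.0417 in limma). Its arrays did not overlap, as for 33.6% of all genes. It was taken up here because the test of the difference between the time points passed the threshold. The lungs also differ in age, which goes with length of treatment in these groups, so age and treatment cannot be told apart. In addition, 1 of the 3-month lungs was on the other slide. Within slide 2 the difference was 1.48 (adjusted p = 0.179 in limma). With the slide as a block it was 1.48 (adjusted p = 0.135). Neither kept the call, which held under 7 of the 21 other settings.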

How the results depend on the processing

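Cdkn1a kept its direction under all 19 other settings at 9 months against controls and was called under 14, and it kept its direction under all 21 between the cre groups and was called under 7, males alone counted among both. The number of members called at 9 months against controls, 1 as reported, was 2 with normexp or the deposited values, and 0 with only the 2 groups compared, the slide block, sex as a covariate or male arrays only; leaving out 1 lung gave 0 to 2. Between the cre groups it was 0 with scaling to the array median, no filter on dim probes, only the 2 groups compared, the slide block, slide 2 only, sex as a covariate, the replicate block, male arrays only or female arrays only; leaving out 1 lung gave 0 to 2. The number at 3 months was 0 under every setting run.

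The number of genes called at 9 months against controls, 1087 as reported, was 489 without the filter on dim probes, 689 with every probe in the fit, 185 with 2 groups, 0 with the slide block or sex, 317 with the replicate block and 7 in males; leaving out 1 lung gave 158 (control replicate 2) to 1638 (9-month cre replicate 2). With the deposited values 46% of called genes were higher, against 56.5% as reported. At 3 months, 76 became 49 with normexp, 43 with deposited values, 14 without the filter, 45 with probes above background on all arrays, 389 with 2 groups, 0 with the slide block, sex or males only, 4 within slide 1 and 42 with the replicate block; leaving out 1 lung gave 1 to 115. Between the cre groups, 840 became 427 with median scaling, 104 without the filter, 335 with 2 groups, 0 with the slide block, within slide 2, or in males or females only, 234 with sex and 6 with the replicate block; leaving out 1 lung gave 0 to 1120. Male-only and female-only settings were added after the data were seen. In males the cre groups have 1 lung each, assumed to vary like the controls.

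Replicate numbers did not pair the lungs: over 9 same-number pairs the correlation of deviations was -0.236 to 0.045, and 1 of 9 arrays correlated best with its own number. With the replicate block Cdkn1a was 2.08 at 9 months against controls, and 1.49 between the cre groups (adjusted p = 0.0854).

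Signs turned only for small differences, none called. At 3 months Cdkn2c, -0.018 as reported, became 0.041 with normexp, 0.088 with the slide block or slide 1 only, 0.262 in males, and -0.18 to 0.175 without 1 lung (0.0174 without control replicate 2, 0.109 without replicate 3). Cdkn2d became 0.0538 with the slide block or slide 1 only, 0.0124 in males and -0.102 to 0.0331 without 1 lung (the latter without 3-month cre replicate 3). Cdkn2b became -0.00563 with probes averaged and -0.00769 to 0.191 without 1 lung (the former without 3-month cre replicate 2). Cdkn1c ran from -0.384 to 0.111 against controls and from -0.326 to 0.168 against 3-month cre lungs without 1 lung, the higher value each time without 9-month cre replicate 3. The causes were not tested. Signal over background limits the second probes of Cdkn1a and Cdkn2a.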
